A study of Mus musculus with 4 samples.

Results

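The genes described here are 38 glycolysis and hypoxia genes, taken by symbol from the mRNA tables of tumor-initiating hepatocytes. These are C57BL/6 mouse liver cells whose name in the labels refers to the initiation of tumors. Of the 38 genes, 37 were listed among the 16211 genes of both mRNA tables, and Adm was not listed. At least 100 reads in 1 library were found for 35 of them, against 11412 of all genes; Car9 and Ankrd37 stayed below that minimum. The comparison is between a library labelled control (a control short hairpin RNA) and a library labelled H19 knockdown (a hairpin against the long noncoding RNA H19), with 1 mRNA library each. How many clones, cultures or passages lie behind each library is not given in the sources used here. With 1 library per condition no difference has a replicate check, no test was possible and no p-value is given. Intervals are 95% counting intervals, which leave out the spread between cultures and the copying of reads by PCR.

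Glycolysis splits glucose into pyruvate in the cytosol, and lactate dehydrogenase turns pyruvate into lactate when it is not oxidised in mitochondria. Several of its steps have isozymes encoded by separate genes, and the adult liver and growing or transformed cells use different ones. Hypoxia-inducible factor (HIF) is a dimer of an oxygen-labile alpha subunit and the stable partner Arnt. In the presence of oxygen, prolyl hydroxylases mark the alpha subunit for the Vhl ubiquitin ligase, so HIF activity is set mainly at the protein level. When oxygen is short, HIF binds short DNA sites with the core letters ACGTG or GCGTG near its target genes, many glycolytic enzymes among them.

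Reads assigned to genes totalled 33578868 for the control and 34061172 for the library labelled H19 knockdown. Where 2 values are joined by "and", the control is first. H19 itself had 43 and 40 reads, a ratio of 0.931 (0.589 to 1.46), so the targeted gene did not bear out the label, and directions below refer to the label only. The label of a hepatocyte was also compared with defining markers: Krt8, Krt18, Apob and Hnf4a had 2373 to 41277 reads in the control, while Alb, Apoa1, Ttr, Serpina1a and Afp had 33 to 129, and Cps1 was not listed. All 5 cholangiocyte markers were listed: Spp1 had 72614 and 73248 reads, Krt19 29919 and 39984, Krt7 6162 and 4194, Sox9 122 and 109, and Epcam 12 and 11. Krt19 was thus higher, at a ratio of 1.33, and Krt7 lower, at 0.680. Of 6 macrophage markers 5 were listed, with 3495 and 2641 reads in all, of which Cd14 gave 3189 and 2417. Adgre1 was not listed and Ptprc had 22 and 17. Of the endothelial markers Kdr alone was listed, with 61 reads in each library, and of the stellate and fibroblast markers Col1a1 alone, with 59 and 42. Of 13 mitochondrially encoded genes 10 were at least 1.2-fold higher under that label, with a median log2 ratio of 0.35, and their part in the results below was not tested.

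The letters ACGTG and GCGTG were searched on both strands in the 250 bases before the annotated starts of 36 of the 38 genes, using RefSeq promoters of GRCm38.p6. The palindrome CACGTG, the E-box letters read by Myc and by the Mxi1 protein with their partner Max, contains ACGTG on both strands and was counted once. The stretches below are shown for the 3 genes at least 1.2-fold higher with the most reads (Egln3, Ldhb and Pfkl), for Hif1a, and for Ldha, Bnip3 and Pgk1, glycolytic and hypoxia genes with several matches. Matched letters are in capitals, and each stretch is written 5′ to 3′ along its gene's strand.
Egln3, chr12:54204084-54204124, minus strand: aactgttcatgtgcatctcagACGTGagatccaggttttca
Hif1a, chr12:73907717-73907817, plus strand: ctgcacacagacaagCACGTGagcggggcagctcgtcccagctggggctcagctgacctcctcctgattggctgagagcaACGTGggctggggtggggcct
Ldha, chr7:46845654-46845774, plus strand: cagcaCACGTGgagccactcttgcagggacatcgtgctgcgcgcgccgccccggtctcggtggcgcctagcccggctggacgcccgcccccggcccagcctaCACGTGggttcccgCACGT
Ldhb, chr6:142508057-142508107, minus strand: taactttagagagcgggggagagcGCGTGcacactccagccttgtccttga
Bnip3, chr7:138909536-138909636, minus strand: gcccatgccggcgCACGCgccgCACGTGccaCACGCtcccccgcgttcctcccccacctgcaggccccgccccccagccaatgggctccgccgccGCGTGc
Pgk1, chrX:106186940-106186985, plus strand: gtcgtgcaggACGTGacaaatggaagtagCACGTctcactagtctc
Pfkl, chr10:78009887-78009927, minus strand: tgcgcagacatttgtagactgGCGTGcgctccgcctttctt

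In these windows ACGTG was present for 20 of 36 genes (55.6%) at any annotated start and for 44.4% at the start listed first. Of 8648 genes with at least 100 reads and an entry in the promoter table, 25.8% held it at any start and 22.5% at the start listed first. Either core was present for 32 of 36 genes (88.9%), against 63.4%. Among the hypoxia target genes, with Adm counted, 10 of 10 with an entry held a core at some start and 8 at the start listed first. Bnip3l and Ndrg1 had no entry. No core was found before the only listed start of Gpi1, Tpi1, Eno2 or Vhl. Vegfa had none at the start listed first and an ACGTG and a GCGTG match at the other. Many of these genes are known as HIF targets, so the shares describe the choice of members, and a match of letters is not a bound site.

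Between the libraries the pathway differed little. On the log2 scale the median ratio of the 35 measured members (library labelled H19 knockdown over control, 1 count added to each scaled count) was 0.02, against 0.01 over all 11412 genes, and the members ranged from -0.39 to 0.59. Of the 35 members 20 lay within 10% of the control, as did 6038 of 11412 genes. At least 1.2-fold higher were 4 members, Ldhb, Egln3, Pfkl and Pfkfb4, against 10.3% of all genes, and at least 1.2-fold lower was 1 member, Vegfa, against 9.89%. Only Ldhb reached 1.5-fold, against 1.31% of all genes higher and 1.39% lower by that limit. The share of members at least 1.2-fold higher, 11.4%, was thus near that of all genes, while the share lower, 2.86%, rests on 1 gene. The counting interval lay above 1 for 14 members and below 1 for 11, against 28.0% and 24.1% of all genes. Members also had more reads, with a median of 2664 in the control against 1178 over all measured genes, and more reads make such intervals narrower. Log2 ratios of all 5842 genes with 1000 to 10000 reads had a standard deviation (SD) of 0.17, against 0.04 from counting alone. The 20 members in that range had an SD of 0.21, and the 8 members with at least 10000 reads had an SD of 0.10, against 0.18 over 485 genes. Differences between the libraries were thus wider than counting alone gives, for members and for other genes, so an interval apart from 1 is common.

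**Figure D1:**
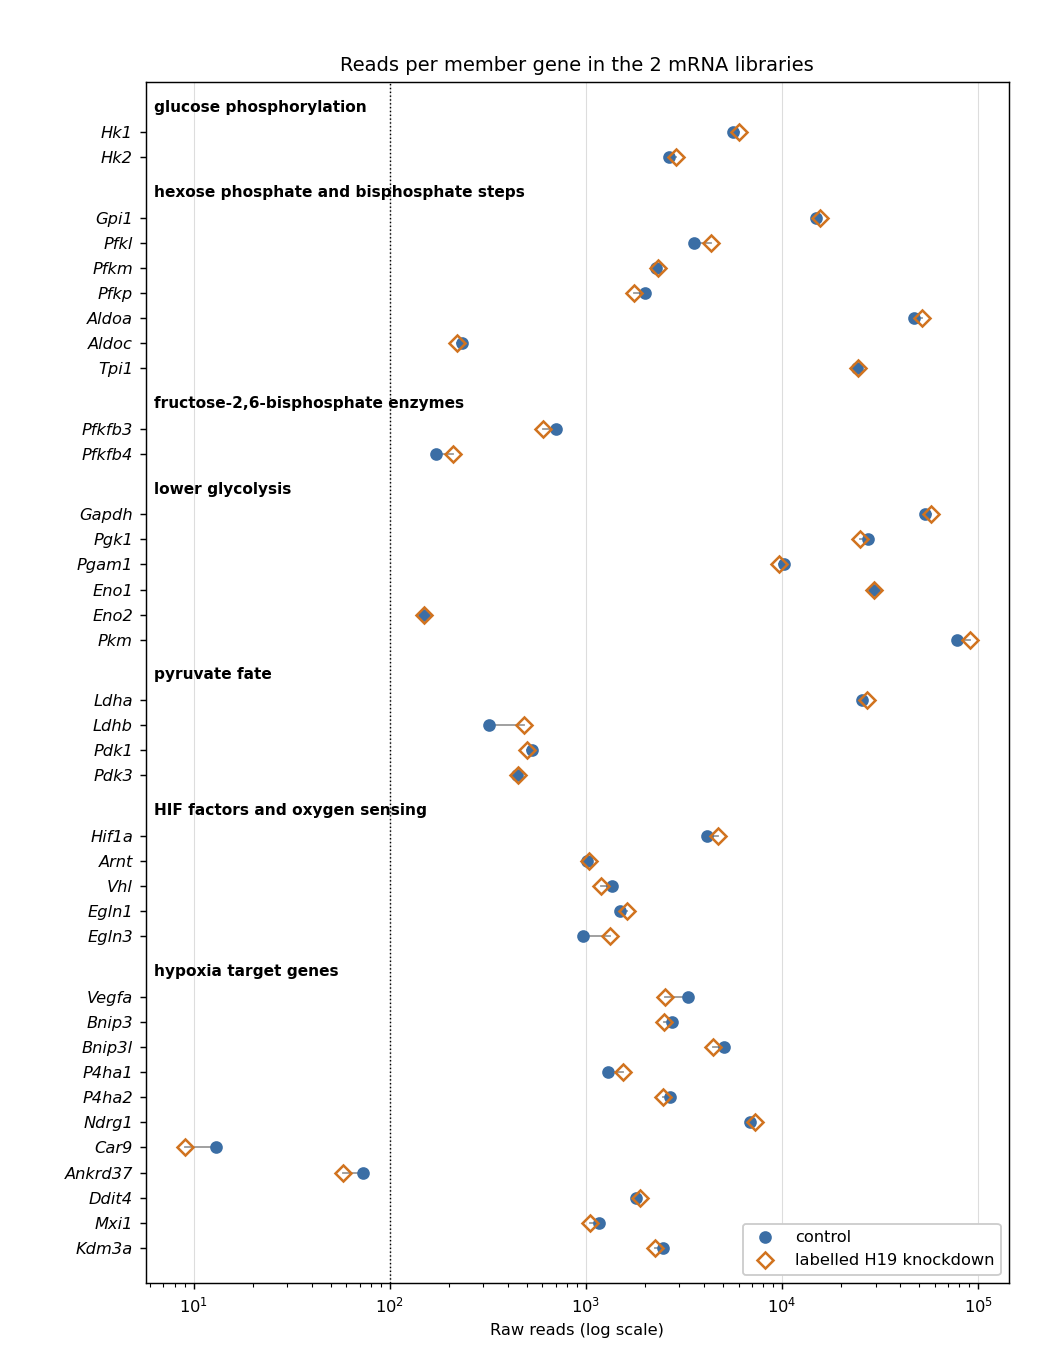
Raw reads of the 37 listed genes on a log axis, grouped by role, with filled circles for the control library and open diamonds for the library labelled H19 knockdown; the dotted line marks 100 reads. Most circles and diamonds overlap, from Car9 with 13 and 9 reads to Pkm with 78394 and 90480, and the widest gaps among genes right of the line belong to Ldhb, Egln3 and Vegfa.

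Glucose enters the pathway through hexokinase. Hk1, the widely expressed form, had 5627 reads in the control against 6068 in the library labelled H19 knockdown (ratio 1.08, interval 1.04 to 1.12). Hk2, the inducible form bound to mitochondria in many tumor cells, had 2664 and 2896 reads (ratio 1.09, 1.03 to 1.15). Both were slightly higher and their proportions were alike. Hk2 made up 32.1% and 32.3% of the summed reads of Hk1 and Hk2, or 26.9% and 27.0% per length of the longest coding transcript. Hkdc1, a hexokinase domain protein outside the members, was left out of these shares. It had 1079 and 1606 reads, a ratio of 1.49 (1.38 to 1.61). Hk3, another hexokinase, was not listed.

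At the next steps, Gpi1, which interconverts glucose and fructose phosphates, had 14985 and 15705 reads (ratio 1.05, 1.02 to 1.07). Phosphofructokinase, the main control point of glycolysis, has liver (Pfkl), muscle (Pfkm) and platelet (Pfkp) forms. Pfkl had 3558 and 4360 reads, a ratio of 1.22 (1.17 to 1.28). Pfkm had 2280 and 2320 reads (1.02, 0.959 to 1.08), and Pfkp had 2002 and 1767 (0.882, 0.827 to 0.940). Pfkl and Pfkp therefore differed in opposite directions, while the summed reads of the 3 forms, 7840 and 8447, gave a ratio of 1.08. As a share of phosphofructokinase reads Pfkl was at 45.4% in the control (exact Clopper-Pearson interval 44.3 to 46.5) and at 51.6% under the other label (50.5 to 52.7). Pfkp made up 25.5% and 20.9%. Taken per length of the longest coding transcript, the Pfkl share was 42.8% and 48.7%.

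Fructose 2,6-bisphosphate, the activator of phosphofructokinase, is made and removed by the bifunctional Pfkfb enzymes. Pfkfb3, the form with the strongest kinase activity, had 702 and 601 reads (ratio 0.855, 0.766 to 0.955). Pfkfb4 had 172 and 211 reads, a ratio of 1.22 with an interval of 0.997 to 1.51 that included no difference. The Pfkfb4 share of the summed reads of Pfkfb3 and Pfkfb4 was 19.7% (17.1 to 22.5) and 26.0% (23.0 to 29.1). Pfkfb2 and Pfkfb1, which are outside the members, were left out of this share. Pfkfb2 had the most reads of these enzymes, 1592 and 1406 (ratio 0.882, 0.821 to 0.948), and Pfkfb1 had 280 and 237.

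Aldolase and triose phosphate isomerase complete the upper pathway. Aldoa had 47369 and 51617 reads (1.09, or 0.12 on the log2 scale with an interval of 0.10 to 0.14), and the brain form Aldoc had 234 and 221 (0.944, 0.781 to 1.14). Tpi1 had 24248 and 24480 reads, a ratio of 1.01 (0.991 to 1.03).

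Lower glycolysis held the most abundant transcripts. Pkm, pyruvate kinase of muscle and growing cells, had 78394 and 90480 reads, a ratio of 1.15 (1.14 to 1.16) and the highest of the 6 genes. Gapdh had 53841 and 57226 (1.06, 1.05 to 1.07). In between, Pgk1, phosphoglycerate kinase, had 27389 and 25133 reads (0.917, 0.901 to 0.933), and Pgam1, phosphoglycerate mutase, had 10271 and 9680 (0.941, 0.916 to 0.968). Eno1 had 29586 and 29482 reads (0.995, 0.979 to 1.01), and the neuronal enolase Eno2 had 149 in each. Neighboring steps of the pathway thus went different ways, with ratios from 0.917 to 1.15 in these 6 genes. Gene-level counts do not separate the M1 and M2 splice forms of Pkm.

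Per length, the enzymes were among the strongest transcripts of the cells. As RPKM computed from TMM-scaled library sizes and the longest coding transcript, the control levels were 1122 for Gapdh, 1044 for Pkm and 905 for Aldoa, ranks 46, 52 and 64 of 12975 genes with a length. Tpi1 (446), Pgk1 (444), Eno1 (432) and Ldha (428) followed at ranks 132 to 137, and these neighbors lie too close to be ordered. Gpi1 was at 218 and Pgam1 at 166. The control steps of hexokinase and phosphofructokinase were lowest, at 53.2 and 65.9 summed over their member isozymes. In the library labelled H19 knockdown they were at 57.4 and 71.0. The hexokinase sum covers Hk1 and Hk2 and leaves out Hkdc1, which was at 9.08 in the control and 13.5 under the other label. The level depends on the length used: with the union of all annotated exons, chosen after seeing the data, Eno1 was at 163 and Gpi1 at 98.6. The 17 glycolytic enzymes and lactate dehydrogenases together held 328482 and 349328 reads, 0.972% and 1.03% of all scaled reads, a ratio of 1.06 (1.06 to 1.07). Without Pkm the ratio was 1.03.

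**Figure D2:**
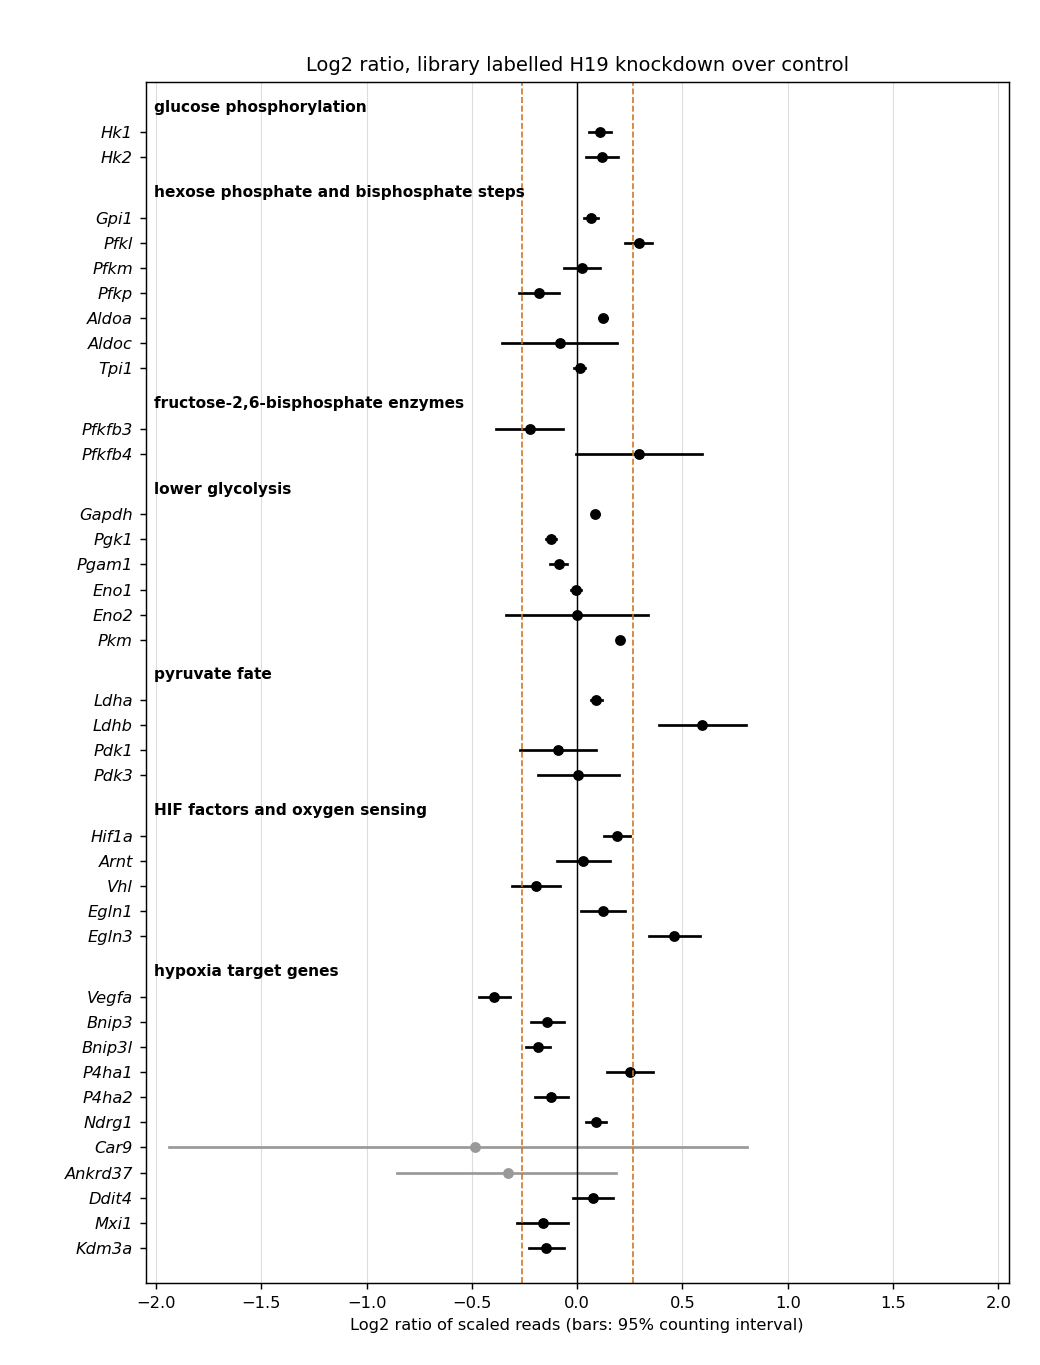
Log2 ratio of scaled reads for each gene (points) with its 95% counting interval (bars), grouped by role; dashed lines mark 1.2-fold and grey genes had fewer than 100 reads in both libraries. Most points lie between the dashed lines, with Ldhb at 0.59 and Egln3 at 0.46 on the right and Vegfa at -0.39 on the left.

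Pyruvate is reduced to lactate by tetramers of Ldha and Ldhb, and pyruvate dehydrogenase kinases hold it back from mitochondrial oxidation. Ldha, the muscle subunit, had 25564 and 27259 reads (ratio 1.07, 1.05 to 1.08). Ldhb, the heart subunit, had 321 reads in the control against 485 under the other label, a ratio of 1.51 (1.31 to 1.74), the highest among the 35 measured members. Scaled to library totals its log2 ratio was 0.57, just below 1.5-fold (0.585). The 539 measured genes of its chromosome, 6, had a median of -0.10 on the log2 scale, opposite in sign to its own 0.59. Ldhb still made up only 1.24% (1.11 to 1.38) and 1.75% (1.60 to 1.91) of lactate dehydrogenase reads, so Ldha gave nearly all reads of the pair in both libraries. The kinase Pdk1, a HIF target, had 530 and 498 reads (0.939, 0.829 to 1.06), and Pdk3 had 446 and 448 (1.00, 0.878 to 1.15). Neither kinase differed beyond counting error.

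**Figure D3:**
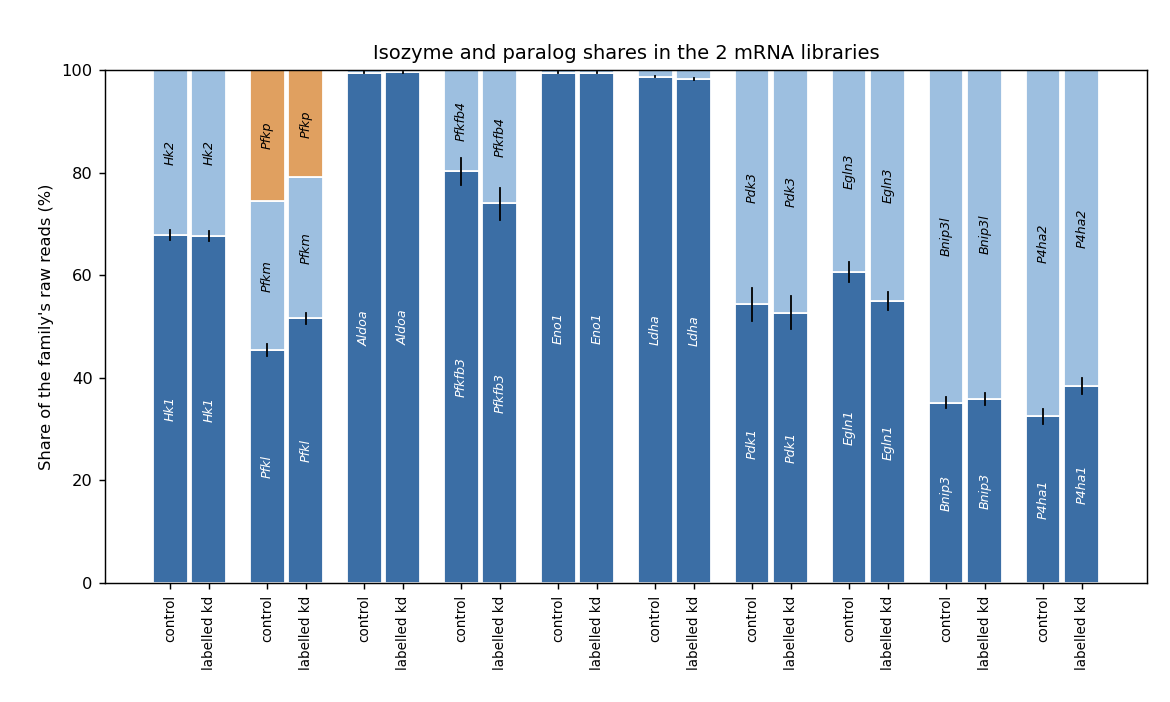
Share of each isozyme or paralog in the raw reads of its family, in percent, for the control (left bar of each pair) and the library labelled H19 knockdown (right bar, "labelled kd"); black lines are exact 95% intervals of the lowest segment. The dark segment is Aldoa, Eno1 or Ldha at over 98% in 3 families. The intervals of the paired bars are apart for Pfkl, Pfkfb3, Ldha, Egln1 and P4ha1. Families hold members only, so related genes such as Hkdc1, Pfkfb2, Eno3 and Egln2 are left out of the shares.

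The oxygen-sensing genes were compared next. Hif1a, the labile subunit, had 4137 and 4720 reads, a ratio of 1.14 (1.09 to 1.19). Its partner Arnt had 1015 and 1036 (1.02, 0.934 to 1.11). The ubiquitin ligase subunit Vhl had 1361 and 1190 reads (0.874, 0.807 to 0.945). Egln1, the main prolyl hydroxylase in normal oxygen, had 1492 and 1626 reads (1.09, 1.01 to 1.17). Egln3, a hydroxylase that HIF itself induces, had 966 reads in the control against 1331 under the other label, a ratio of 1.38 (0.46 on the log2 scale, 0.34 to 0.58). The Egln3 share of reads from both hydroxylases was 39.3% (37.4 to 41.3) and 45.0% (43.2 to 46.8). Per length it was 46.1% and 51.9%, so that the order of the pair by level per length differed between the libraries.

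Hif1a (73901324 to 73947554) and Egln3 (54178981 to 54203874) both lie on chromosome 12 of GRCm38. On that chromosome 91.1% of 369 measured genes lay above 0, with a median of 0.28. With the chromosome median subtracted, Hif1a moved from 0.19 to -0.09 and Egln3 from 0.46 to 0.18, so that Hif1a changed sign and Egln3 no longer reached 1.2-fold. Pfkl, Ldhb and Pfkfb4 lie on chromosomes 10, 6 and 9, whose medians were 0.06, -0.10 and 0.02. After the subtraction their log2 ratios were 0.23, 0.69 and 0.27, so that Pfkl too fell short of 1.2-fold (0.26 on the log2 scale). Chromosomes 6 and 4 had medians of -0.10 and -0.18, and the members there, Hk2, Gapdh, Tpi1, Eno2, Ldhb, Vhl and Kdm3a on chromosome 6 and Eno1 on chromosome 4, ranged from -0.20 to 0.59. The median of lower glycolysis moved from 0.00 to 0.13. What lies behind the chromosome medians was not tested.

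**Figure D4:**
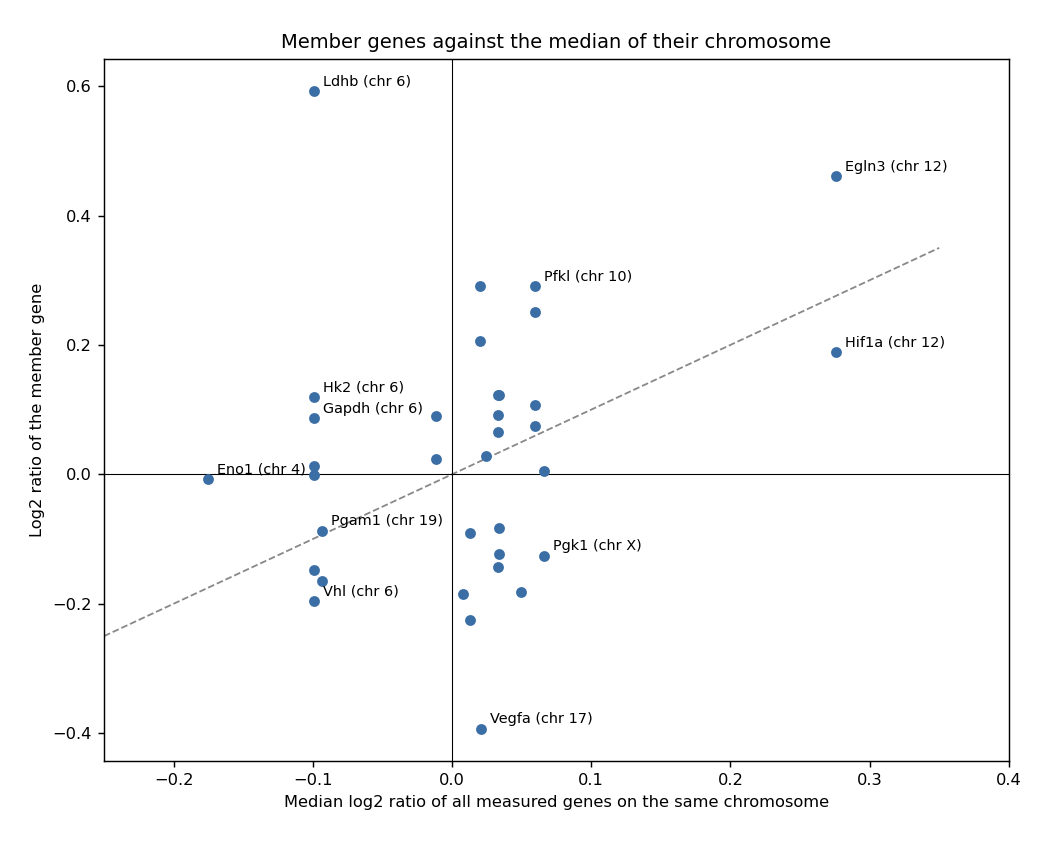
Log2 ratio of each of the 35 measured members against the median log2 ratio of all measured genes on its chromosome; the dashed line marks equality. The chromosome 12 genes Hif1a and Egln3 lie far right, on either side of the line, while Ldhb (0.59) and Vegfa (-0.39) stand far from it.

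Without the unlisted Adm, the members grouped here as hypoxia target genes are 11, of which 9 were measured. Targets of HIF among the enzymes and hydroxylases, such as Egln3, are described above. Of the 9 measured hypoxia target genes 6 lay below 0, as did 5494 of all 11412 genes. The same 6 had counting intervals below 1, against 24.1% of all genes. The median log2 ratio of the 9 was -0.14, against 0.01 for all genes, and -0.07 with chromosome medians subtracted. Vegfa, the growth factor for blood vessels, had 3315 reads in the control against 2527 under the other label, a ratio of 0.762 (0.723 to 0.802). It was the lowest of the 35 measured members, and its chromosome, 17, had a median of 0.02. Of the 5 listed macrophage markers, Cd14 was also lower under the knockdown label, at a ratio of 0.757. Lyz2, at 0.406, and Csf1r, with 34 and 14 reads, were lower too. Cd68 had 118 and 140 reads (1.18, 0.921 to 1.53), and the 22 and 17 reads of Ptprc gave an interval of 0.385 to 1.52. Their part in the Vegfa difference was not tested. In bulk RNA fewer cells of a type and less RNA per cell cannot be told apart.

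The mitophagy receptors Bnip3 and Bnip3l differed in the same direction. Bnip3 had 2744 and 2488 (ratio 0.906, 0.858 to 0.957) and Bnip3l had 5066 and 4460 (0.879, 0.845 to 0.916). Their shares of the joint reads were close, Bnip3 at 35.1% and 35.8%. The collagen prolyl hydroxylase subunits differed in opposite directions: P4ha1 had 1291 and 1538 reads (1.19, or 0.25 on the log2 scale with an interval of 0.14 to 0.36), and P4ha2 had 2682 and 2466 (0.919, 0.869 to 0.970). P4ha1 made up 32.5% (31.0 to 34.0) and 38.4% (36.9 to 39.9) of their reads. In 5 of the 10 families with isozymes or paralogs the exact intervals of the shares were apart between the libraries. These intervals cover counting error only, and the same count was not made for other gene pairs, so it has no background.

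Kdm3a, a histone demethylase, had 2484 and 2245 reads (0.903, 0.852 to 0.956), and Mxi1, an antagonist of Myc, had 1168 and 1043 (0.892, 0.820 to 0.971). Ndrg1, a stress and differentiation gene, had 6842 and 7288 reads (1.06, or 0.09 on the log2 scale with an interval of 0.04 to 0.14). Ddit4, an inhibitor of mTORC1, had 1794 and 1891 (1.05, 0.987 to 1.12). Car9, the membrane carbonic anhydrase often used as a marker of hypoxic tumor cells, had 13 and 9 reads, and Ankrd37 had 73 and 58. At this depth no difference could be measured for Car9 (0.714, 0.261 to 1.75) or Ankrd37 (0.796, 0.552 to 1.14).

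Reads of near-identical copies cannot be assigned with certainty, since glycolytic genes have many processed pseudogenes and the counting rule is not given in the sources used here. Copies listed under their own symbols had few reads: Pgam1-ps2 had 33 and 29, Eno1b 21 and 21, Pgk1-rs7 11 and 23, Bnip3l-ps 21 and 24 and Aldoart1 13 and 18. Hk1os, antisense to Hk1, had 8 and 19 reads, and strand use is not stated.

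The small RNA libraries add miR-210, the miRNA best known for induction by HIF. Its 3p arm is shown with its seed (bases 2 to 8) in capitals.
miR-210-3p, chr7:141221407-141221428, minus strand: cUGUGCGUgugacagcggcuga
No other of the 1738 mature mouse miRNAs in the RefSeq table shared the seed UGUGCGU. The 3p arm had 4059 reads in the control small RNA library and 6454 in the one labelled H19 knockdown, or 571 and 616 RPM of all arm reads. Scaled, the ratio was 1.12 (1.07 to 1.16), and the arm ranked 74 and 68 among 889 arms. The less abundant 5p arm had 209 and 447 reads, a log2 ratio of 0.58 (0.35 to 0.83). Both arms were thus higher in the small RNA library with the knockdown label. Scaled to library totals, the log2 ratios were 0.11 for the 3p arm and 0.53 for the 5p arm. The same comparison was not made over all 889 arms, so these ratios have no background.

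Other genes around the pathway were taken from 10 lists. As background to each count below, 10.3% of all measured genes reached 1.2-fold upward and 9.89% downward. In glucose and lactate transport 8 genes were measured, and 0 of them reached 1.2-fold upward and 1 downward, with a median log2 ratio of -0.02. That gene was Slc2a9, a urate and hexose transporter, with 419 and 300 reads (-0.48). Slc2a1, the main glucose transporter of growing cells and a HIF target, had 2313 and 1988 reads (-0.22) and lies on chromosome 4. Slc2a2, the liver glucose transporter, had 101 and 111 (0.13). The lactate carriers Slc16a1 and Slc16a3 had 3968 and 4286 reads (0.11) and 127 and 123 (-0.05).

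Among 11 measured isozymes and regulators outside the 38 genes, 2 reached 1.2-fold upward and 0 downward, with a median of -0.04. With a minimum of 20 reads the median was -0.15, against -0.0015 for all genes. Hkdc1, a hexokinase domain protein, had 1079 and 1606 reads (0.57), and Eno3, the muscle enolase, had 1439 and 1782 (0.31). Hkdc1 lies on chromosome 10, as Hk1 does, and both Hk1 and Hk2 differed less. Pklr, pyruvate kinase of differentiated liver and red cells, had 628 and 526 reads (-0.26), opposite to Pkm at 0.21. Pfkfb1, the liver form, had 280 and 237 (-0.24).

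In gluconeogenesis 4 genes were measured and 0 reached 1.2-fold in either direction (median 0.00), with Pck2 at 4311 and 4309 reads, Pcx at 572 and 523 (-0.13), Slc37a4 at 0.03 and G6pc3 with 414 in each. Pck1, Fbp1 and G6pc, which mark glucose output by adult hepatocytes, were not listed. For entry of pyruvate into mitochondria 10 of 11 genes lay below 0, against 5494 of all 11412 genes. Within 10% of the control were 9 of the 11, against 6038 of all 11412, and 2 had an interval below 1. The median was -0.05, or -0.0095 with a minimum of 1000 reads, and 1 gene reached 1.2-fold, the carrier subunit Mpc1 with 1733 and 1392 reads (-0.32). In the same list Pdp1 was at -0.16, Pdk4 at -0.14 with 911 and 830 reads, Mpc2 at -0.13 and Pdk2 at -0.09 with 200 and 188. The pentose phosphate pathway split evenly, with 4 genes above and 4 below 0 and a median of 0.01. With a minimum of 1000 reads its median was 0.09, against 0.02 for all genes. Tkt, transketolase, had 21615 and 25306 reads (0.23) and G6pdx 1961 and 2218 (0.18), while Rpia was at -0.35 and H6pd at -0.17.

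Glycogen genes had a median of 0.12 over 9, with 1 at least 1.2-fold higher and 1 lower. Pygl, liver glycogen phosphorylase, had 139 and 217 reads (0.64) and lies on chromosome 12. Gyg, the primer of glycogen synthesis, had 378 and 281 (-0.43), and Gys1, glycogen synthase, was at 0.24. Of 16 TCA cycle genes 0 reached 1.2-fold and 8 lay on each side of 0 (median 0.01), with citrate synthase Cs at 0.19, Dlst at 0.19, Sdha at 0.16 and Sdhb at -0.14.

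Among 14 measured HIF subunits and regulators 3 were at least 1.2-fold higher and 1 lower, with a median of 0.09. With a minimum of 1000 reads the median was 0.03, against 0.02 for all genes. Hif3a, an alpha subunit that can restrain HIF, had 1580 and 2040 reads (0.37), Arnt2 had 268 and 334 (0.32) and Cited2, which competes with HIF for its coactivators, had 2545 and 3166 (0.31). Hif1an, the asparagine hydroxylase that blocks coactivator binding, had 1665 and 1358 (-0.30). Epas1, the HIF-2 alpha subunit, had 75 and 78 reads, a control level of 0.418 RPKM against 25.9 for Hif1a.

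Of 30 measured genes reported as hypoxia-induced outside the 38, 14 lay above and 16 below 0, with a median of -0.01. At least 1.2-fold higher were 2, Edn1, the vasoconstrictor endothelin, with 614 and 872 reads (0.50) and Flt1, a receptor for Vegfa, with 682 and 949 (0.47). Zfp395 was lower, with 157 and 129 (-0.28), and Tfrc, the transferrin receptor, was at 0.26. Of 9 Myc network genes 2 reached 1.2-fold upward and 0 downward (median -0.05). Max had 662 and 866 reads (0.39) and lies on chromosome 12, and Mxd3 was at 0.26, just past the limit. Mlx, at -0.26, was just short of it, and Mxd4 was at -0.23. Myc itself had 1730 and 1729 reads.

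**Figure D5:**
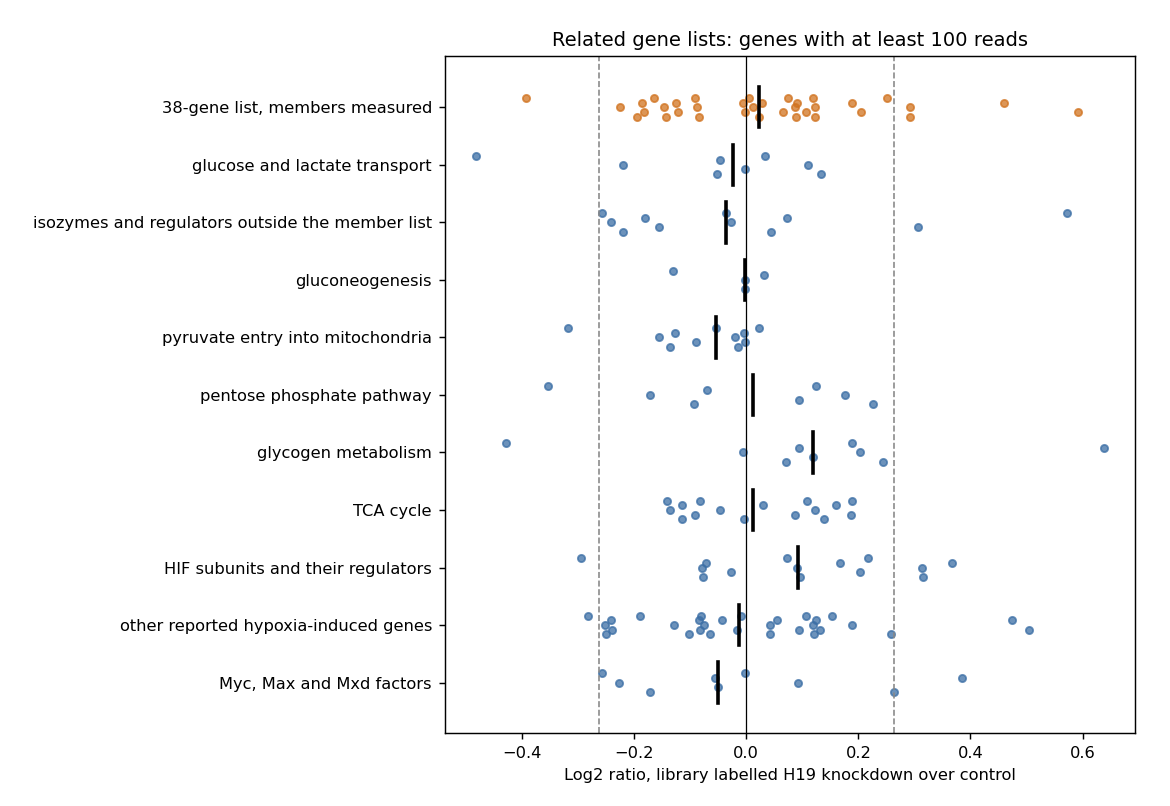
Log2 ratios (library labelled H19 knockdown over control) of genes with at least 100 reads, 1 point per gene, for the 35 measured members in the top row and for 10 related lists; black bars are medians and dashed lines mark 1.2-fold. The medians lie between -0.05 and 0.12, and few genes of any list pass a dashed line.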

How the data were processed

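The 2 mRNA tables hold raw counts of reads per gene symbol, in the form deposited by the authors. Per the submitters' processing notes the tools were Trimmomatic 0.36 and STAR 2.5.2b and the genome GRCm38. The annotation, counting program and strand use were not given in the sources used here. Apostrophes inserted into 37 symbols were removed. The small RNA tables hold counts per precursor and arm, and the copy with the most reads stands for each arm.

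Counts were scaled with edgeR 4.0.16 TMM sizes in R 4.3.3; ratios have 1 count added, and intervals are exact conditional binomial (95%). The calculation was tested on simulated data. Alternatives were library totals, size factors of DESeq2 1.42.0, TMM on all but the 10 genes with the most reads, 0.5 or 5 counts added, minimums of 20, 1000 or 0 reads, chromosome medians subtracted and means. Python 3.11.15 was used otherwise.

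Chromosomes and promoters come from RefSeq (GRCm38.p6), placing 11165 of 11412 genes; transcript lengths come from GENCODE M1, whose coordinates were not used. The members, lists and fold limits were chosen with earlier results of these data known. Each listed member is named, as are, from each related list, up to 4 genes with the largest absolute log2 ratio among those with at least 100 reads, plus Slc2a1, Slc16a1, Slc16a3, Pdk2, Pdk4, Epas1, Myc and H19 whatever their value. Some items that this rule names are not reported here.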

Additional observations from a re-analysis of the deposited data

Results flagged for a closer look

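The comparison of miR-210 used its mature arms. Reads of the same precursor that fell in neither arm numbered 160 in the control small RNA library and 309 in that labelled H19 knockdown. Their scaled log2 ratio was 0.44 (0.16 to 0.72), and they are given here as values from a column outside the comparison that exceeded the control.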

How the results depend on the processing

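No paired analysis was possible because each group holds 1 library. Scaling moved the median of all genes from 0.01 to at most -0.01 on the log2 scale, and the members' median stayed between 0.00 and 0.05 under the alternatives run. Members at least 1.2-fold higher numbered 2 in place of 4 with chromosome medians subtracted, with a minimum of 1000 reads and with intervals wholly beyond the fold. The shares of all genes under these settings were 7.8%, 7.19% and 3.58%, in place of 10.3%. Members at least 1.2-fold lower numbered 2 and 3 with minimums of 20 and 0 reads, which admit Ankrd37 and Car9. The shares of all genes there were 16.3% and 17.6%, in place of 9.89%. At 1.5-fold 0 were higher, in place of 1, when scaled to library totals, with 1000 reads required or with the interval wholly beyond the fold. For all genes these settings gave 1.18%, 0.277% and 0.342%, in place of 1.31%. With chromosome medians subtracted 2 log2 ratios reversed, Pgam1 to 0.0061 and Hif1a to -0.087. The summed enzyme ratio was 1.05 scaled to library totals and 1.03 without Pkm. Of 222 member values 205 stayed inside their counting interval. With chromosome medians subtracted, 14 of the 37 listed members moved outside theirs or reversed, Gapdh, Pkm, Aldoa and Ldha among them. Taken per length, changes of isozyme shares differed from those in raw reads by less than counting error. For Pfkl the change was 6.2 percentage points in raw reads and 5.9 per length. Depth limits Car9, Ankrd37, Eno2, Aldoc and Pfkfb4, whose few reads leave wide intervals.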

Other observations

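The related lists and the members together hold 154 measured genes, of which 73 lay above and 81 below 0. Grouped by chromosome after the values had been seen, 5 of 6 such genes on chromosome 12 lay above 0 (Hif1a, Egln3, Max, Pygl and Dlst, with Dld the exception). Their median log2 ratio was 0.29 beside 0.28 for the chromosome, where 91.1% of all measured genes lay above 0. On chromosome 4, 8 of 10 lay below 0, among them Slc2a1, H6pd, Pdp1 and Sdhb, with a median of -0.09 beside -0.18. Above 0 were 14.6% of all measured genes there. On chromosome 19, 5 of 5 lay below 0 (Hif1an, Minpp1, Mxi1, Pcx and Pgam1), with a median of -0.13 beside -0.09. On chromosome 6 it was 11 of 16, with a median of -0.13 beside -0.10. Above 0 were 25.1% and 25.6% of all measured genes on chromosomes 19 and 6. Chromosomes 10 and 7 each had 9 of 10 above 0, against 65.2% and 57.6% of all genes there, with medians of 0.15 and 0.11 beside 0.06 and 0.03. Other chromosomes went against their own median. On chromosome 17, 4 of 5 lay below 0 (-0.25 beside 0.02), and on chromosome 2, 6 of 7 (-0.06 beside 0.01). On chromosome 1 it was 5 of 7 (-0.08 beside 0.02), and on chromosome 5, 7 of 9 (-0.06 beside 0.00). Of all measured genes on chromosomes 17, 2, 1 and 5, 55.2%, 52.4%, 55.1% and 50.7% lay above 0.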
